A study of Mus musculus with 797 samples.

Results

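The Sst interneuron nuclei described here are 104 of 781 single nuclei kept from a screen of AAV vectors in mouse brain, and 104 of the 310 nuclei classed as GABAergic. They were chosen by read counts per 1000000 gene reads (CPM). A nucleus was a member where Gad1 and Gad2, the enzymes that make GABA, summed to at least 10 CPM, the glutamatergic transporter gene Slc17a7 and the Adarb2 gene lay under 10 CPM, and Sst, which encodes somatostatin, reached 10 CPM and was no lower than Pvalb. The levels of these 6 genes chose the nuclei, so they are given as a description and were not tested. The other 206 GABAergic nuclei served for comparison: 136 with Pvalb above Sst ("Pvalb nuclei"), 53 with Adarb2 at 10 CPM or more ("Adarb2 nuclei") and 17 with none of the 3 genes.

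All mice had the genotype C57Bl/6J and received an AAV packaged in PHP.eB, a capsid that enters the brain from blood. The vector expressed H2B-SYFP2, a yellow fluorescent histone that marks nuclei, from an enhancer or promoter. The dose was 5e11 vector genomes per mouse, given in young adulthood, and YFP-positive nuclei were sorted singly 3 to 4 weeks later. All 797 labelled nuclei carry the tissue label striatum, while the design text names 3 sorted regions, the others being the cortical areas ALM and VISp. RNA-seq libraries were made by the full-length SMART-Seq v4 method. Of the 20 vector labels, 4 name reference elements: CMV, a viral promoter; hSyn1, the human synapsin 1 promoter; and the Dlx-derived hI56i and DLX2.0. The other 16 begin with AiE. Each label has 39 or 40 nuclei. Animals are not identified, and each vector label therefore counts as a single sample, whose nuclei were pooled; the spread between labels mixes vectors with animals. Every nucleus was sorted for reporter, so shares of nuclei describe the sorted population and not the tissue.

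Somatostatin interneurons are a main class of forebrain inhibitory neurons that arise in the medial ganglionic eminence under the factors Lhx6, Sox6 and Satb1. In cortex most of them contact dendrites of pyramidal cells. Neuropeptide Y, calbindin (Calb1), reelin and dynorphin mark overlapping subsets, and rare cells with nitric oxide synthase (Nos1) and Chodl send long axons. Parvalbumin interneurons share this origin but fire fast and contact cell bodies, whereas Adarb2 marks interneurons of the caudal ganglionic eminence, among them the Vip and Lamp5 types.

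Sst lies on chromosome 16, 23889573 to 23890958 of mm10 (ENSMUSG00000004366, minus strand, GENCODE M21). Its transcription is classically driven by a cAMP response element, so the RefSeq promoters (GRCm38.p6, the 250 bases before each start) were searched for the letters TGACGTCA, which read the same on both strands. Windows of 30 bases are printed for Sst and for the only genes with a match among those called below as higher (Ptpru) or lower (Scg2) in Sst nuclei, with the element in capitals.
Sst: gcctccttggcTGACGTCAgagagagagtt
Ptpru: gcccgggggccTGACGTCAgcgccccgctc
Scg2: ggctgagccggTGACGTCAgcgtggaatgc
These lie at chr16:23890874-23890903, chr4:131838301-131838330 and chr1:79440076-79440105, all on the minus strand. The element began 48, 41 and 68 bases before the RefSeq start of Sst, Ptpru and Scg2. GENCODE M21 places an untranslated exon over the Sst and Scg2 windows, so the start sites of the 2 annotations differ. The letters occurred in 478 of 27025 promoters (1.77%) and in 275 of the 7396 promoters of genes tested below (3.72%). They occurred in 1 of 34 matched genes called higher in Sst nuclei, in 1 of 75 called lower, and in 1 of 12 matched members of the neuropeptide list, Sst itself. The match is a description of sequence only.

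Sst in the members ran from 153 to 47069 CPM with a median of 4982 CPM. No member lay between 10 and 50 CPM, 5 lay between 50 and 500 CPM, and 51 had at least 5000 CPM. The 17 GABAergic nuclei just outside, without Adarb2 or Pvalb, had no Sst read. The gap around the threshold was therefore wide: thresholds of 5 or 20 CPM, or thinning every nucleus to 100000 reads, left 104 or 105 members. Pvalb reached 10 CPM in 20 members, where Sst exceeded it by a median ratio of 18 and by at least 1.47. Conversely, 15 Pvalb nuclei had Sst at 10 CPM or more, at most 193 CPM. No member had an Adarb2 read, and the lowest Adarb2 level among the Adarb2 nuclei was 174 CPM. The sum of Gad1 and Gad2 ranged upward from 62.9 CPM in the members, with a median of 1144 CPM.

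Nuclei kept had 50565 to 666436 reads with a median of 292895. The library names carry 3 prefixes, called library sets A, B and C, with 516, 178 and 87 nuclei. Of the members, 66 were in set A, 25 in set B and 13 in set C. Set B stood apart. Its Sst nuclei had a median of 5756 genes, against 2753.5 in set A and 2604 in set C, and 15 of the 25 had over 1% mitochondrial reads, against 0 of 66 and 0 of 13. Sst itself was also higher there, with a median of 10511 CPM in set B, 3904 CPM in set A and 6248 CPM in set C. The part of set B in the results below was not tested as a cause; calls are followed in set A alone or without set B.

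Sst nuclei had a median of 2829.5 genes and 314570 reads, and the other GABAergic nuclei 3144.5 genes and 321192 reads. After thinning to 100000 reads, the Sst nuclei had 209 fewer genes on average within a vector label (SD 418 over 13 labels, higher in 3 of them, exact permutation p = 0.0972, 0.292 after Benjamini-Hochberg adjustment over 3 quality measures). Within set A the deficit was 312 genes (SD 338, 11 labels, higher in 1, exact permutation p = 0.00879), and without set B it was 307 genes (SD 318, 12 labels, higher in 1, exact permutation p = 0.00439), both two-sided and unadjusted. Reads per nucleus differed by -6048 ± 31253 (SD, 13 labels, exact permutation p = 0.489) and the mitochondrial share by -0.163 ± 0.620 percentage points (exact permutation p = 0.922). Median genes after thinning were 2700 in Sst, 3118.5 in Pvalb and 2382 in Adarb2 nuclei, so the Sst median lay between those of the Pvalb and Adarb2 nuclei. No difference in depth or mitochondrial share was detectable over the spread between labels.

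Sst nuclei made up 13.3% of the nuclei kept (exact 95% interval 11 to 15.9) and 33.5% of the GABAergic ones (28.3 to 39.1). In set A these shares were 12.8% and 30.1%. Members were found for 15 of the 20 labels. The hSyn1 label had the most, with 12 of 38 nuclei (31.6%, 17.5 to 48.7), followed by 11 of 39 for both AiE0450h and AiE0682h (28.2%, 15 to 44.9) and 10 of 39 for hI56i (25.6%). DLX2.0 and AiE0452h had 9 of 39 each. The CMV label had 3 of 40 (7.5%, 1.57 to 20.4). No member was found for AiE0078h, AiE0140h, AiE0387m, AiE0401h and AiE0445h_3xC2. With 40 nuclei a count of 0 allows a share of up to 7.5%, and with the 38 of AiE0387m up to 7.89%. These intervals cover counting error only.

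**Figure D1:**
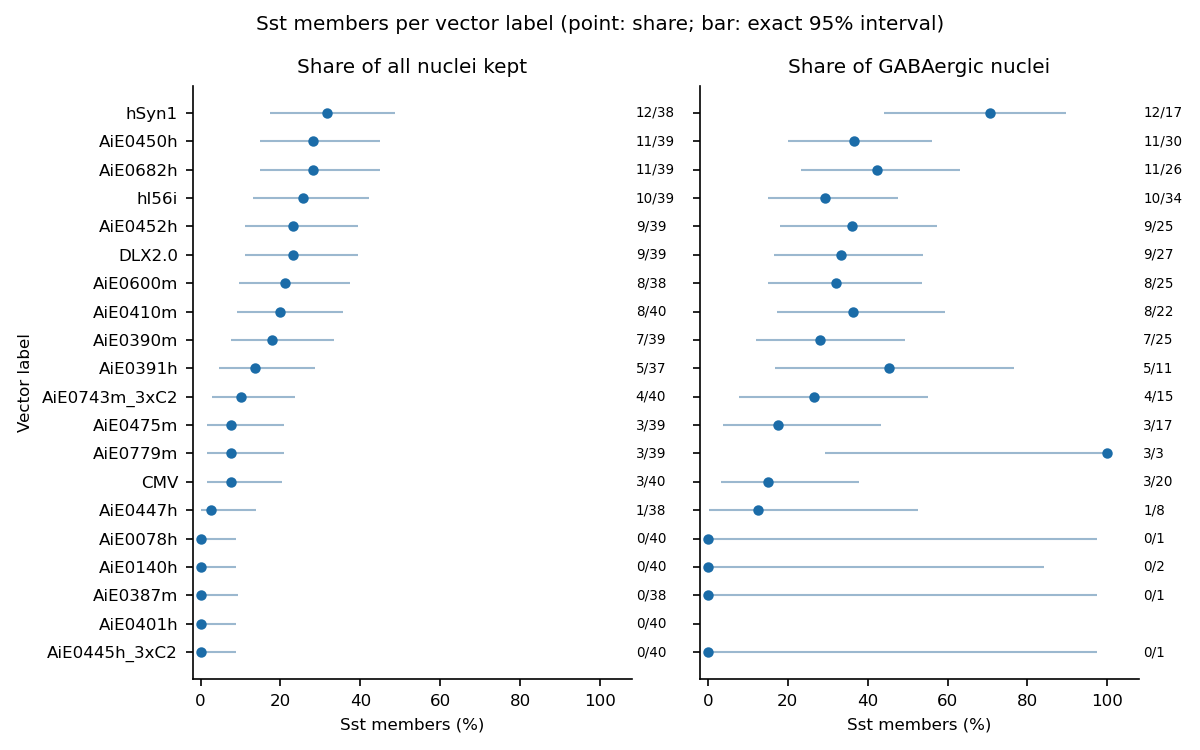
Sst members per vector label as a share of all nuclei kept (left) and of GABAergic nuclei (right), in percent, with exact 95% intervals and the counts at the right of each panel. AiE0401h had no GABAergic nucleus and has no point at right. The 5 labels at 0% each had at most 2 GABAergic nuclei, and hSyn1 lies highest at left with 12 of 38.

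Read against the GABAergic nuclei of each label, the order changed. Sst nuclei were 12 of 17 GABAergic nuclei for hSyn1 (70.6%, 44.0 to 89.7), whereas the 2 Dlx-derived elements gave 10 of 34 for hI56i (29.4%, 15.1 to 47.5) and 9 of 27 for DLX2.0 (33.3%, 16.5 to 54.0). For CMV they were 3 of 20 (15%, 3.21 to 37.9). The interval of hSyn1 overlaps those of hI56i and DLX2.0 but not that of CMV. AiE0779m had only 3 GABAergic nuclei, and all 3 were Sst nuclei. The other labels with at least 10 GABAergic nuclei lay between 17.6% for AiE0475m and 45.5% for AiE0391h, with intervals that overlap each other. The labels without members had 0 to 2 GABAergic nuclei each, too few to give a share of Sst nuclei among them. By library set, the members for hSyn1 were 4 of 5 GABAergic nuclei in set B and 8 of 12 in set C, with no GABAergic nucleus in set A. Those for AiE0391h and AiE0779m were all in set B. Of the GABAergic nuclei for CMV, 19 of 20 were in set A, as were all 17 for AiE0475m. Vector label and library set therefore cannot be told apart where hSyn1 is set beside CMV or AiE0475m.

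The 5 Sst markers that the rule did not use were each more frequent in the members. This list was chosen with earlier results of these data known. Its shares here and its counts below are therefore a description and no independent evidence for the class. Synpr, a synaptic vesicle protein gene, was at 10 CPM or more in 84.6% of Sst nuclei and 14.1% of other GABAergic nuclei. For Cdh13, an adhesion gene, the shares were 76.9% and 29.1%, and for Calb1 71.2% and 18%. Reln reached 64.4% and 14.1%, and Npy 60.6% and 38.8%. The Npy share of the other nuclei came mostly from Adarb2 nuclei, of which 81.1% had it, against 22.8% of Pvalb nuclei. Likewise Synpr was in 37.7% of Adarb2 and 2.21% of Pvalb nuclei, and Reln in 39.6% and 4.41%.

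**Figure D2:**
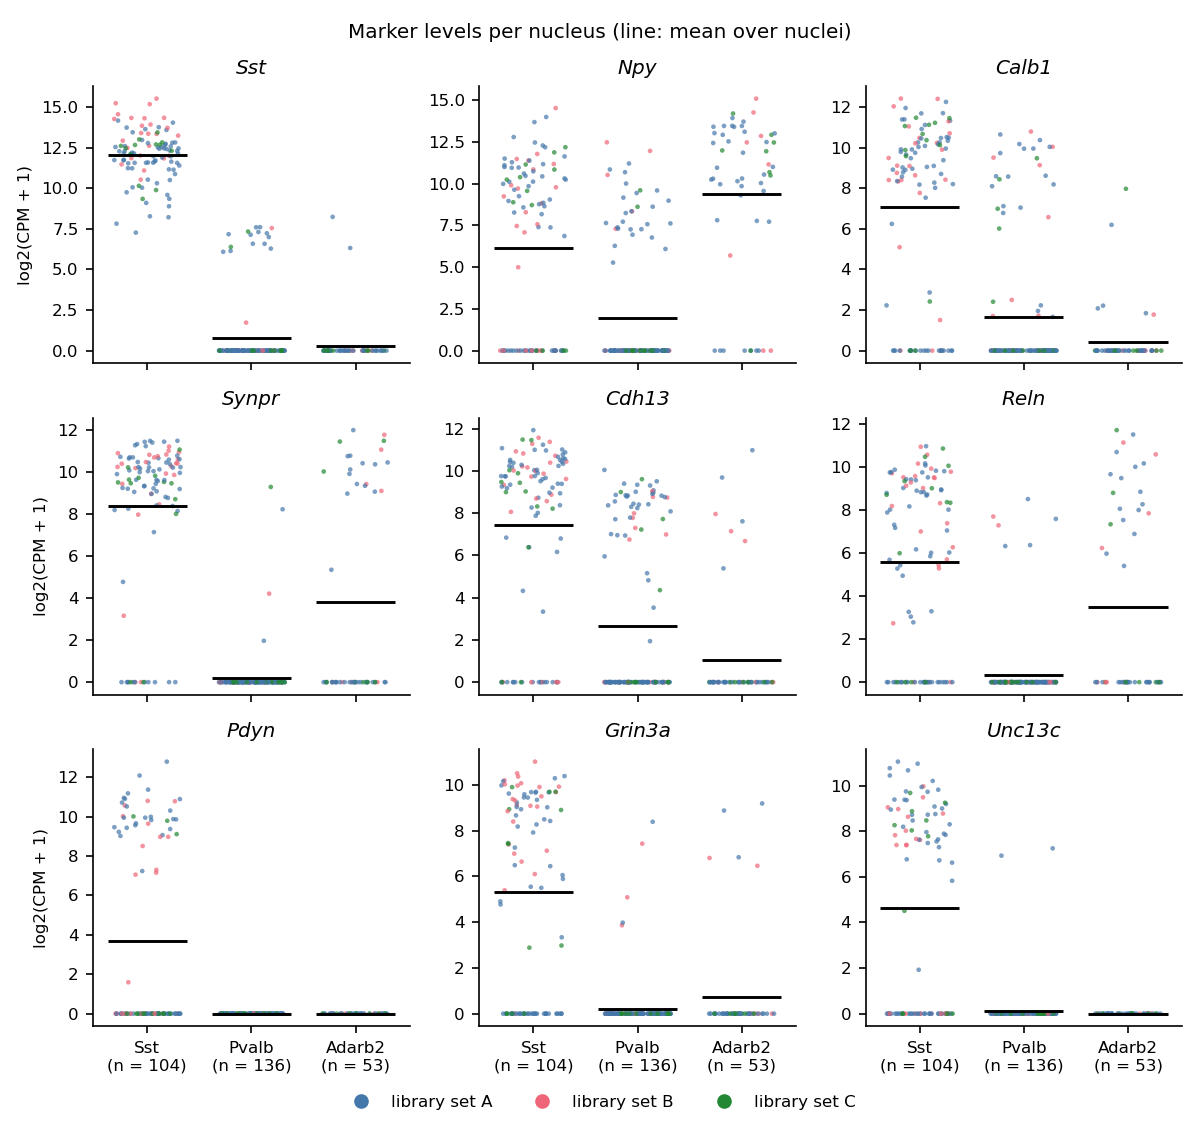
Level per nucleus, log2(CPM + 1), of the 6 Sst markers and of Pdyn, Grin3a and Unc13c in the 104 Sst, 136 Pvalb and 53 Adarb2 nuclei. Points are nuclei coloured by library set, lines are means over nuclei, and each panel has its own scale. Pdyn has no read in either comparison class, while Npy, Synpr and Reln are shared with part of the Adarb2 nuclei.

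Satb1, Sox6 and Lhx6 are lineage factors of the medial eminence. Among the Sst nuclei Satb1 was at 10 CPM or more in 84.6%, Sox6 in 74.0% and Lhx6 in 46.2%, against 60.3%, 77.2% and 30.1% of Pvalb nuclei and 3.77%, 1.89% and 1.89% of Adarb2 nuclei. Lhx6 was in 84.0% of the Sst nuclei of set B but 33.3% of those in set A. Nkx2-1, which striatal interneurons are known to keep, and Lhx8, a factor of cholinergic neurons, were read in 0 of 104 members, which allows a share of up to 2.88%. The summed level of the 10 markers of spiny projection neurons, the main cells of striatum, had a median of 0 CPM in the members (0 to 602 CPM), with Adora2a, Ppp1r1b, Isl1 and Gpr6 among those at 0 in all 104; in set B the median was 60.9 CPM. The list also had a median of 0 CPM (0 to 747) in the 206 other GABAergic nuclei. The rule chose the members as Sst interneurons, so their low levels alone do not bear on the tissue label striatum. The 206 other GABAergic nuclei were 136 Pvalb nuclei, 53 Adarb2 nuclei and 17 of no class. Which tissue the nuclei came from was not tested. Markers of cholinergic neurons, astrocytes, oligodendrocytes and of microglia with vessels also had medians of 0 CPM in the members, with highest sums of 42.7, 1633, 1637 and 757 CPM. The 10 glutamatergic markers, which include Slc17a7 of the class rule, summed to a median of 97.7 CPM in Sst nuclei and 95.3 CPM in the other GABAergic nuclei.

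The next question was which genes separated Sst nuclei from all other GABAergic nuclei of the same vector labels. Reads were summed per label and class over the 13 labels with at least 3 nuclei of each, 100 Sst and 194 other nuclei, and tested with edgeR's quasi-likelihood test with the label as a block. At an adjusted p under 0.05, 153 of 9374 genes (1.63%) differed, 47 higher (0.501%) and 106 lower (1.13%) in Sst nuclei. limma on the mean log2(CPM+1) per label called 519 genes (5.54%), 210 higher (2.24%) and 309 lower (3.3%), of which 135 were among the 153, and 1045 had an unadjusted p under 0.05 in edgeR. The median fitted log2 fold change over all genes was -0.63, and the source of this shift was not tested. With equal numbers of nuclei per label the median was -0.10, and 33 genes were higher and 35 lower. Set A alone gave 16 higher and 93 lower, and DESeq2 with its own size factors 198 higher and 1247 lower. Values below are therefore differences of mean log2(CPM+1) within a label, given as mean ± SD over labels, whose median over all genes tested was -0.08. The edgeR p-values beside them still come from the fits on summed reads.

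Pdyn, which encodes the precursor of the opioid dynorphin, had the lowest adjusted p among the genes named as higher. It lies on chromosome 2, 129686565 to 129699844 (ENSMUSG00000027400). It had a read in 38.5% of Sst nuclei and in 0 of 206 other GABAergic nuclei, which allows up to 1.46%. The difference within a label was 1.65 at the lowest, 3.59 at the median and 10.1 at the highest. All 13 labels were thus higher, by 4.58 ± 2.48 (edgeR adjusted p = 5.57e-10). With no read in the other nuclei, Pdyn passed the count filter through the Sst sums alone, and no label could be lower. In set A alone and without set B Pdyn was not tested. In set A 37.9% of the 66 Sst nuclei had it at 10 CPM or more. Unc13c, a presynaptic vesicle priming factor on chromosome 9, 73479422 to 73968966 (ENSMUSG00000062151), was read in 54.8% of Sst and 0.971% of other nuclei. It was higher in 13 of 13 labels, from 2.16 through a median of 4.12 to 9.52, mean 4.92 ± 2.37 (edgeR adjusted p = 2.23e-07, 8.43e-05 in set A).

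The other genes named by size of change act in signalling, at synapses and elsewhere. Trhde, which degrades thyrotropin-releasing hormone, differed by 3.96 ± 1.57, Pde1a, a calcium-dependent phosphodiesterase, by 3.51 ± 1.91 and the receptor phosphatase gene Ptpru by 3.10 ± 1.79. These 3 kept an adjusted p under 0.05 in set A, without set B and in each fit that left out 1 label. Cbln4, a synaptic organizer, was higher by 1.82 ± 1.42 (edgeR adjusted p = 0.00865, 0.0561 in set A), and Shisa6, which binds AMPA receptors, by 1.74 ± 1.28 (edgeR adjusted p = 0.0049). Adcy2, an adenylyl cyclase, was higher by 4.41 ± 1.96 and the condensin gene Smc2 by 4.54 ± 1.75 (edgeR adjusted p = 0.0393 and 0.044, Adcy2 0.313 with equal numbers of nuclei, Smc2 0.058 in set A). Spon1, an extracellular matrix gene, was higher by 2.43 ± 1.88 (edgeR adjusted p = 0.022, 0.125 in set A and 0.103 without set B).

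Glutamate receptors gave 4 genes higher and 1 lower among 20 tested. The list median was 0.49 against -0.08 over all genes. Grin3a, a modulatory subunit of NMDA receptors on chromosome 4, 49661611 to 49845744 (ENSMUSG00000039579), was read in 63.5% of Sst and 5.34% of other nuclei. Its difference ran from 3.04 through a median of 5.13 to 6.22 in the 13 labels, with a mean of 4.76 ± 1.05. The spread between labels was narrower for Grin3a than for Pdyn or Unc13c. The edgeR adjusted p was 0.0275, and 0.0217 in set A, while 4 of 13 fits without 1 label (AiE0450h, AiE0452h, AiE0600m or hI56i) gave up to 0.0709. Grm7, a metabotropic receptor gene, was higher by 3.68 ± 1.82, and the AMPA subunit gene Gria1 by 1.90 ± 1.53. In set A alone their adjusted p-values by edgeR were 0.111 and 0.623. Gria4, another AMPA subunit, was lower by -1.81 ± 1.45 (edgeR adjusted p = 0.00865, 0.0748 in set A).

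**Figure D3:**
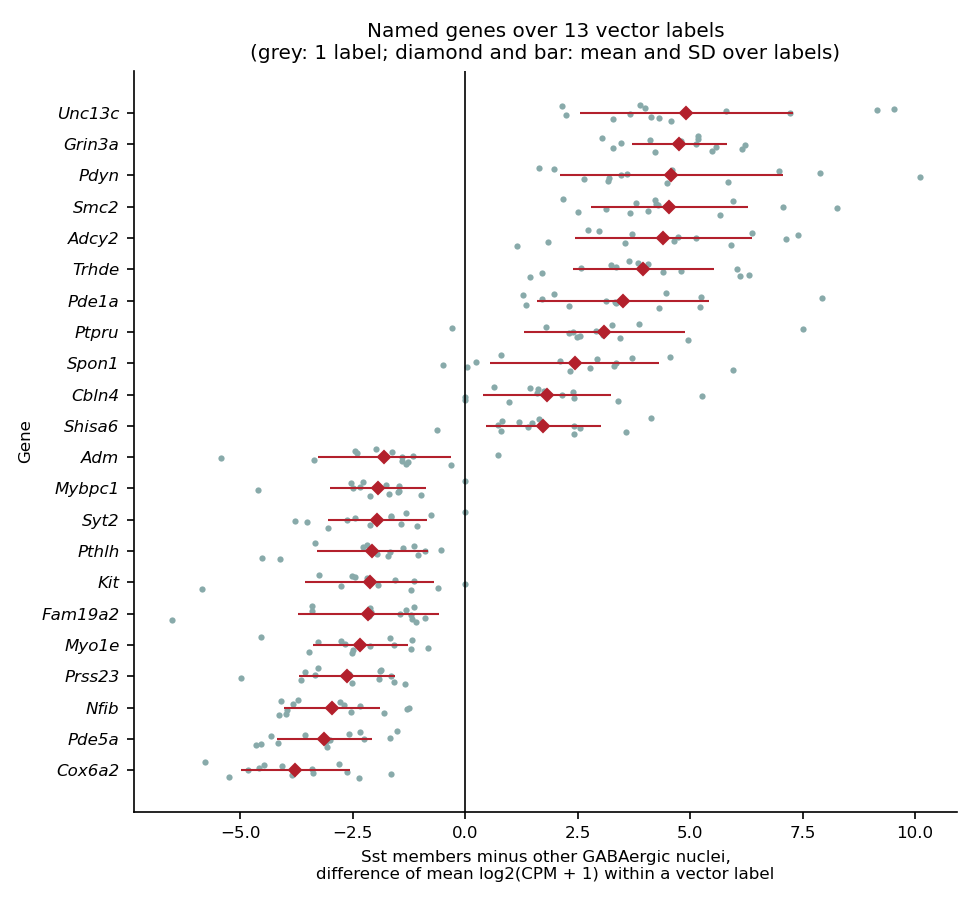
Sst nuclei minus other GABAergic nuclei of the same vector label, as the difference of mean log2(CPM + 1), for 22 genes named by the rule. Grey points are the 13 labels, diamonds and bars their mean and SD. Unc13c, Grin3a and Pdyn lie to the right of 0 in every label, and Cox6a2, Pde5a and Nfib to the left in every label.

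Among the 12 tested Pvalb markers 5 were lower in Sst nuclei and none higher: Pthlh, Kcnc1, Syt2, Cox6a2 and Mybpc1, with a list median of -2.01. Cox6a2, a cytochrome oxidase subunit, was read in 2.88% of Sst and 48.1% of other nuclei. The difference was -5.79 at the lowest, -3.86 at the median and -1.64 at the highest, mean -3.78 ± 1.21 (edgeR adjusted p = 3.17e-05). Pde5a, a cGMP phosphodiesterase, differed by -3.13 ± 1.06, and the transcription factor gene Nfib by -2.96 ± 1.07 (edgeR adjusted p = 6.07e-05 and 1.04e-06). Prss23, a protease, Myo1e, a myosin, and Fam19a2, a secreted chemokine-like factor, were lower by -2.63 ± 1.07, -2.33 ± 1.06 and -2.15 ± 1.56. The receptor kinase gene Kit differed by -2.12 ± 1.44 and the peptide hormone genes Pthlh and Adm by -2.06 ± 1.23 and -1.80 ± 1.48. Syt2, a fast calcium sensor of release, and Mybpc1, a myosin-binding protein, were lower by -1.96 ± 1.10 and -1.94 ± 1.06. These 11 genes held without set B and in each fit without 1 label in which they were tested, and 10 of them held in set A, where Fam19a2 was not tested.

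Neuropeptide genes showed no common direction. Of 16 on the list 8 could be tested, 2 were higher and 6 did not pass, with a median of -0.08. Besides Pdyn, Crhbp, which binds corticotropin-releasing hormone, was higher by 2.93 ± 1.98 in 11 of 13 labels (edgeR adjusted p = 0.00034, but 0.164 in set A and 0.32 without set B). Npy differed by 1.89 ± 1.99, higher in 11 of 13 labels, while the fold change fitted on summed reads was -0.15 on the log2 scale, the opposite sign (edgeR adjusted p = 0.947, limma 0.0102). Cort, encoding the somatostatin-like cortistatin, differed by -0.92 ± 1.27 (edgeR adjusted p = 0.712). Among 12 tested genes of peptide processing and release, Rab3b was higher by 2.76 ± 1.80 (edgeR adjusted p = 0.00034, 0.0374 in set A). Dner, a Notch ligand, and the granin gene Scg2 were lower by -2.62 ± 1.76 and -1 ± 1.72. For Scg2 limma gave an adjusted p of 0.21 and edgeR 0.125 in set A. With equal numbers of nuclei edgeR gave 0.0986 for Dner, 0.187 for Scg2 and 0.0986 for Crhbp.

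Identity and adhesion genes followed. Of the 5 tested Sst markers, Calb1 and Cdh13 were called, higher by 5.13 ± 1.60 and 5.47 ± 1.58 in 13 of 13 labels (edgeR adjusted p = 0.000205 and 0.0016, Cdh13 0.154 without set B; Calb1 0.131 with equal numbers of nuclei). Synpr and Reln differed by 7.11 ± 1.92 and 4.60 ± 1.51, also in 13 of 13 labels, yet did not pass in edgeR (adjusted p = 0.104 and 0.221) while limma gave 7.6e-21 and 1.26e-12. The list median was 5.13. Of 11 tested medial eminence factors, Satb1 alone was called, higher by 3.81 ± 1.64 (edgeR adjusted p = 0.000469, 0.0791 in set A), with a list median of 0.12. Among 31 tested synaptic adhesion genes, Nrxn3, Ptpru and Cbln4 were higher and Il1rapl1 lower, and among 19 tested cadherins Cdh9 and Cdh13 were higher. Over all genes tested 0.501% were higher and 1.13% lower. The medians of the 2 lists were 0.12 and 0.19, against -0.08 over all genes. Nrxn3 and Cdh9 had edgeR adjusted p-values of 0.126 and 0.0945 in set A.

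Potassium channel genes came next. Of 29 tested potassium channel genes none was higher and 2 were lower: Kcnc1, the fast delayed rectifier Kv3.1, by -2.39 ± 1.37 (edgeR adjusted p = 1.04e-06, 0.000315 in set A) and Kcnh7 by -4.19 ± 1.19 (edgeR adjusted p = 0.0154, 0.139 in set A). The list median was -0.50 against -0.08 over all genes. Scn1a, a sodium channel gene, was lower by -2.50 ± 1.59; the calcium channel gene Cacna1e was higher by 3.25 ± 1.32. In set A the adjusted p-values by edgeR were 0.0157 and 0.307, and with equal numbers of nuclei 0.14 and 0.103. Of 13 tested GABA receptor genes none was higher and 2 were lower, among them Gabrg3 by -3.46 ± 1.15 (edgeR adjusted p = 0.00717, 0.0443 in set A), with a list median of -0.55.

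Of 13 tested receptors for modulators, the muscarinic Chrm3 was higher by 3.67 ± 1.12 and the adrenergic Adra1a lower by -2.07 ± 0.881. The Chrm3 call (edgeR adjusted p = 0.0353) was 0.155 in set A, and that of Adra1a (0.00731) was 0.00446 there. The somatostatin receptor genes on the list, Sstr1 to Sstr4, were too rare to test, at 10 CPM or more in 5.77%, 2.88%, 1.92% and 4.81% of Sst nuclei. Of 24 tested axon guidance genes Sema5a was lower by -1.54 ± 1.09, and of 7 tested activity genes Fos was lower by -1.37 ± 1.26 (edgeR adjusted p = 0.0149, 0.0552 without AiE0450h and 0.118 with equal numbers of nuclei). Lamp5, of the caudal eminence list, was lower by -1.52 ± 1.33 (edgeR adjusted p = 0.0342, 0.276 in set A). The medians of the modulator receptor, guidance and activity lists were 0.02, -0.05 and -0.31, against -0.08 over all genes. Over all genes tested 0.501% were called higher and 1.13% lower.

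Several of these calls were lost in edgeR fits that left out 1 label, some of them in most such fits (Smc2 in 10 of 13, Cacna1e in 11 of 13). Smc2 passed only in the fits without AiE0390m, CMV or DLX2.0 (adjusted p otherwise up to 0.102), Adcy2 only without AiE0475m, AiE0743m_3xC2 or DLX2.0 (up to 0.0913), and Chrm3 only without AiE0743m_3xC2, CMV or hSyn1 (up to 0.0799). Cacna1e passed only without hI56i or hSyn1 (up to 0.107), Gria1 only without AiE0410m, CMV, DLX2.0 or hSyn1 (up to 0.119), and Grm7 only without AiE0391h, AiE0450h, AiE0600m, DLX2.0 or hSyn1 (up to 0.0998). Lamp5 passed only without AiE0450h, AiE0452h, CMV, DLX2.0 or hI56i (up to 0.106). Spon1 was lost without AiE0390m, AiE0410m, AiE0452h, AiE0600m, AiE0743m_3xC2, DLX2.0 or hSyn1 (up to 0.0722), and Nrxn3 without AiE0452h, AiE0475m, AiE0600m or AiE0743m_3xC2 (up to 0.0634). With equal numbers of nuclei per label, edgeR also lost Gria4 (adjusted p = 0.183), Grm7 (0.274), Nrxn3 (0.204), Cdh9 (0.0753), Kcnh7 (0.0698), Chrm3 (0.0698) and Lamp5 (0.0698), and Cbln4, Myo1e, Mybpc1, Pthlh and Fam19a2 could not be tested.

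Against the Pvalb nuclei alone, which share the Sst nuclei of the first comparison, 163 of 8870 genes (1.84%) differed by edgeR over 13 labels with 100 Sst and 131 Pvalb nuclei, 74 higher (0.834%) and 89 lower (1%). limma called 709 (7.99%), 219 higher (2.47%) and 490 lower (5.52%), 156 of them among the 163. Within set A edgeR called 92 genes, 26 higher and 66 lower, and without set B 93. DESeq2 called 281 higher and 898 lower. With equal numbers of nuclei per label edgeR called 58 higher and 51 lower. The median fitted log2 fold change over all genes was -0.45, and -0.14 with equal numbers of nuclei. Here Synpr passed: it was read in 85.6% of Sst and 2.94% of Pvalb nuclei, and the difference ran from 6.26 through a median of 7.20 to 10.8 in the 13 labels, mean 8.13 ± 1.57 (edgeR adjusted p = 0.000385, 0.000137 in set A). Reln was higher by 5.30 ± 1.45 (edgeR adjusted p = 8.79e-06), Grin3a by 4.99 ± 1.13 (5.73e-06), and both held in set A. Among the 5 tested Sst markers 4 were called higher, with Calb1 at 5.13 ± 1.94 (edgeR adjusted p = 0.0106, 0.108 in set A) and Cdh13 at 5.25 ± 1.90, and Npy was not (3.78 ± 1.58, edgeR adjusted p = 0.259).

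Further genes higher than in Pvalb nuclei were Pdyn, Unc13c, Trhde and Cbln4, by 4.58 ± 2.48, 4.88 ± 2.42, 3.97 ± 1.57 and 1.76 ± 1.44, and 5 more. Ildr2, a membrane receptor of the immunoglobulin type, differed by 2.91 ± 2.03, the transcription factor genes Pou3f3 and Tox by 2.47 ± 1.71 and 2.13 ± 1.36, Fxyd7, a regulator of the sodium pump, by 1.88 ± 1.68, and Lingo2, a leucine-rich repeat membrane protein, by 1.39 ± 0.987. Elfn1, the postsynaptic protein that sets facilitating inputs onto Sst cells, was read in 39.4% of Sst and 2.94% of Pvalb nuclei and was higher by 2.13 ± 1.82 (edgeR adjusted p = 0.0336, lost without AiE0390m, AiE0450h, AiE0600m, AiE0682h, DLX2.0 or hI56i, up to 0.0832). Pdyn had no read in the Pvalb nuclei. It passed the count filter through the Sst sums alone, and no label could be lower. Pdyn, Pou3f3, Fxyd7, Lingo2 and Elfn1 were not tested in set A. There Tox and Cbln4 had adjusted p-values of 0.0829 and 0.108 by edgeR. Cacna2d3, a calcium channel subunit, was read in 80.8% of Sst and 8.09% of Pvalb nuclei, with a difference of 6.82 ± 1.64 in 13 of 13 labels (edgeR adjusted p = 0.0435, 0.0721 in set A). It passed only in the fits without AiE0391h, AiE0452h or CMV, with an adjusted p of up to 0.0993 otherwise.

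Of 12 tested Pvalb markers, 7 were lower in Sst nuclei and none higher, with a list median of -2.66 against -0.19 over all genes. These were Cox6a2 by -4.72 ± 1.17, Syt2 by -2.64 ± 1.43, Mybpc1 by -2.67 ± 1.30, Pthlh by -2.28 ± 1.54, Kcnc1 by -3.14 ± 1.32, Nek7 by -3.20 ± 1.19 and Erbb4, the neuregulin receptor of Pvalb cells, by -6.66 ± 1.05. Erbb4 was read in 20.2% of Sst and 94.9% of Pvalb nuclei and was lower in 13 of 13 labels. Its edgeR adjusted p was 0.0405 and 0.206 in set A, and passed only without AiE0410m, AiE0600m, CMV or hI56i (up to 0.0868 otherwise), while limma gave 3.4e-19. Nek7 had 0.101 in set A by edgeR. Tac1, the tachykinin gene, was read in 7.69% and 46.3%, a difference of -4.16 ± 2.19 that did not pass in edgeR (adjusted p = 0.102). The remaining genes named as lower were Prss23 by -3.54 ± 1.28, Pde5a by -3.92 ± 1.09, Lpl, a lipase, by -1.75 ± 1.17, Myo1e by -3.06 ± 1.37, Adm by -2.37 ± 1.80, Fam19a2 by -2.49 ± 1.58 and Nfib by -1.58 ± 0.811.

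Of the other lists, glutamate receptors gave 3 genes higher, among them Grin3a and Grm7, and 1 lower (Gria4) of 19 tested, with a median of 0.44 against -0.19 over all genes. Potassium channels gave 3 lower (Kcnc1, Kcnh7, Kcnip2) and none higher of 25, with a median of -1.09, and GABA receptors 2 lower of 11, among them Gabrg3, with a median of -1.67. Among 19 tested sodium, calcium and related channel genes Cacna1e and Cacna2d3 were higher and 2 genes lower, among them Scn1a. Synaptic adhesion genes gave Elfn1, Nrxn3, Ptpru and Cbln4 as higher and Il1rapl1 as lower of 30, and peptide processing Rab3b and Scg5 as higher of 12. The medians of the adhesion and processing lists were -0.19 and -0.11. Over all genes tested 0.834% were called higher and 1% lower. Satb1 and Crhbp were also higher, and Adra1a was lower. Of the 26 genes called from the lists alone, 8 kept an adjusted p under 0.05 in set A. Scg5 passed only in the edgeR fits without AiE0682h or CMV (up to 0.122 otherwise), and Adra1a was lost without AiE0452h, AiE0600m, AiE0682h or hI56i (up to 0.0564). Kcnip2 was lost without AiE0391h or AiE0682h (up to 0.0747). With equal numbers of nuclei edgeR lost Calb1 (adjusted p = 0.103), Scg5 (0.0824), Adra1a (0.0535), Grm7 (0.0584) and Kcnip2 (0.101), and Pdyn, Cbln4, Fxyd7, Myo1e, Mybpc1, Pthlh, Lpl and Elfn1 could not be tested.

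Against the Adarb2 nuclei the test had less to work with: 7 labels with 57 Sst and 40 Adarb2 nuclei, where 22 of 7541 genes (0.292%) differed by edgeR, 10 higher (0.133%) and 12 lower (0.159%). limma called 180 (2.39%), 113 higher (1.5%) and 67 lower (0.888%), including all 22, and DESeq2 568 higher and 166 lower. The median fitted log2 fold change was 0.54, and that of the differences within a label 0.22. Satb1 was read in 90.4% of Sst and 3.77% of Adarb2 nuclei. Its difference was 5.72 at the lowest, 6.03 at the median and 9.45 at the highest of the 7 labels, mean 6.68 ± 1.35 (edgeR adjusted p = 5.52e-05). All 7 labels were thus higher. Calb1 was higher by 6.57 ± 1.38 (edgeR adjusted p = 0.000318), Ano3, of the anoctamin family, by 5.28 ± 1.88 and Crhbp by 4.92 ± 1.87 (edgeR adjusted p = 1.59e-05). Crhbp had no read in the 53 Adarb2 nuclei, which allows up to 5.66%, so no label could be lower for it. Satb1, Calb1, Ano3 and Crhbp held in set A. Pdyn, also without a read there, was higher by 3.90 ± 1.65 (edgeR adjusted p = 3.4e-07) and was not tested in set A.

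Also higher than in Adarb2 nuclei were Unc13c by 4.94 ± 2.56, Spon1 by 3.14 ± 1.15, Smc2 by 4.76 ± 1.28, the adhesion gene Ntm by 6.27 ± 1.80 and Moxd1, a copper monooxygenase, by 2.64 ± 1.58. Like Crhbp and Pdyn, Unc13c had no read in the Adarb2 nuclei, so no label could be lower for it. Of the 22 called genes, 4 had no read there. The call of Moxd1 was lost without AiE0390m, AiE0450h, AiE0452h or DLX2.0, that of Ntm without AiE0452h, AiE0600m, DLX2.0 or hI56i, and that of Smc2 without CMV, DLX2.0 or hI56i, with edgeR adjusted p-values of up to 0.175, 0.111 and 0.234. Nfib was lower in all 7 labels, by -7.58 ± 1.30 (edgeR adjusted p = 3.4e-07), and was read in 2.88% of Sst and 92.5% of Adarb2 nuclei. Id2, a repressor of helix-loop-helix factors, differed by -6.82 ± 2.62, Kit by -7.60 ± 1.05, Car4, a carbonic anhydrase, by -4.75 ± 1.70 and Dner by -3.97 ± 1.90. Sez6, a dendrite gene, Egfr, the guidance gene Sema3c and Ccn3, a matricellular gene, differed by -4.59 ± 1.77, -3.39 ± 1.19, -3.47 ± 1.05 and -2.34 ± 1.10. Dlx6os1, a noncoding RNA antisense to Dlx6, was lower by -5.32 ± 1.91 (edgeR adjusted p = 0.018, 0.143 in set A). Where Dlx6os1 and Dlx6 overlap, their reads cannot be told apart here.

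Several of these calls were also lost in edgeR fits that left out 1 label. Kit was lost without AiE0450h, AiE0452h, AiE0600m, CMV or DLX2.0 (adjusted p up to 0.247), Egfr without AiE0390m, AiE0450h, AiE0452h or hI56i (up to 0.106), and Sema3c without AiE0450h, DLX2.0 or hI56i (up to 0.0944). Ccn3 was lost without AiE0390m, AiE0450h, AiE0600m, DLX2.0 or hI56i (up to 0.187) and in set A (0.0956), Dlx6os1 without AiE0390m or hI56i (up to 0.0614), Car4 without CMV (0.0588) and Sez6 without AiE0450h (0.106). With equal numbers of nuclei Dner was lost (0.258), and Moxd1, Vip and Ccn3 could not be tested. Vip, the peptide of the Vip type, was read in 1.92% of Sst and 28.3% of Adarb2 nuclei, with a difference of -3.73 ± 2.77. Sox6 differed by 4.63 ± 1.61 in 7 of 7 labels but did not pass (edgeR adjusted p = 0.0534, limma 5.22e-06). Npy differed by -3.29 ± 3.55 (edgeR adjusted p = 0.561, limma 0.00288). The 3 comparisons share their Sst nuclei, so a gene named in several of them is not independent evidence.

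Within the Sst nuclei, subtype genes divided the class. Pdyn was at 10 CPM or more in 39 of 104 (37.5%, 28.2 to 47.5), Cbln4 in 19.2%, Crh in 16.3%, Calb2, which encodes calretinin, in 13.5%, and the transcription factor gene Etv1 in 12.5%. Hpse, encoding heparanase, and the nuclear receptor gene Nr2f2 were each in 11.5%, and Crhr2, a receptor for peptides of the corticotropin-releasing family, in 7.69%. Myh8, a myosin, Chrna2, a nicotinic receptor subunit that marks deep cortical Sst cells, and Nos1 were each in 5.77%. Of these genes Pdyn, Hpse, Crhr2, Myh8 and Chrna2 were at 10 CPM in none of the 206 other GABAergic nuclei, which allows up to 1.46%, while Etv1 was at 10 CPM in 13.1% of them. Chodl, the marker of long-range cells, had no member at 10 CPM, which allows up to 2.88%, although 6 members had Nos1; 0.962% of members had a lower Chodl level. Reading any count above 0 instead of 10 CPM gave 38.5% for Pdyn, 20.2% for Cbln4 and 13.5% for Nr2f2, and the same shares for Crh and Hpse.

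**Figure D4:**
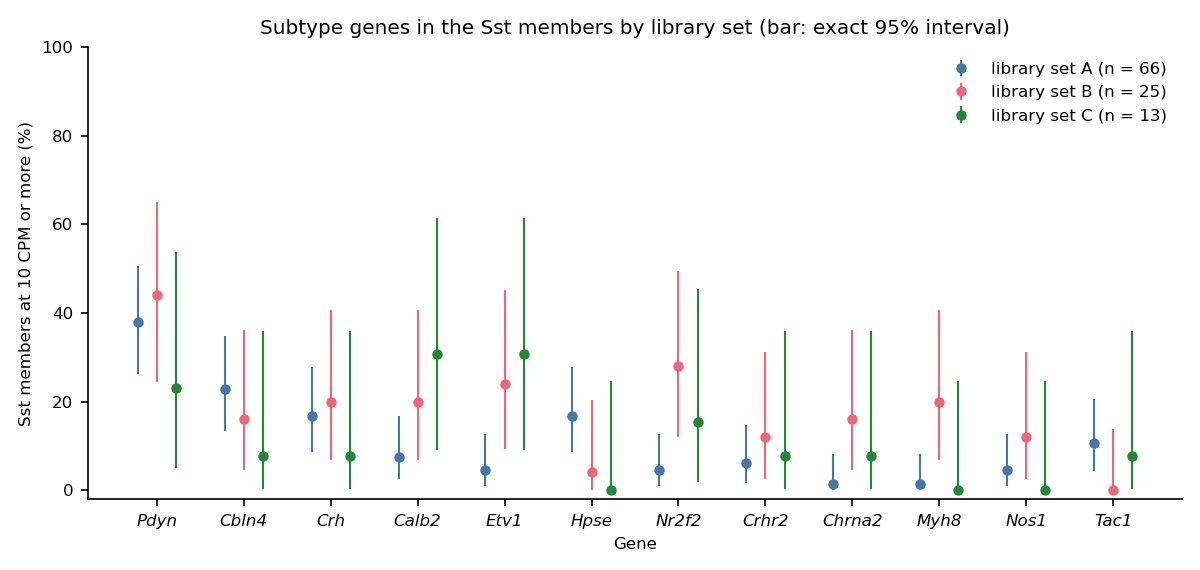
Share of Sst members with each subtype gene at 10 CPM or more, in percent, by library set (66, 25 and 13 nuclei in A, B and C), with exact 95% intervals. Myh8, Nr2f2 and Etv1 lie higher in set B than in set A, and Hpse lies highest in set A.

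These shares were not the same in the library sets. Myh8 was in 1.52% of the Sst nuclei in set A and 20% in set B, Chrna2 in 1.52% and 16%, Nr2f2 in 4.55% and 28%, and Etv1 in 4.55% and 24%. Hpse was in 16.7% of set A and 4.00% of set B. Pdyn (37.9% and 44.0%) and Crh (16.7% and 20%) were closer. Set B also had more genes per nucleus and held labels in other proportions: all 5 members of AiE0391h were in it. Which of these goes with the subtype genes was not tested.

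Npy divided the members by several of their other subtype genes, though not by all. The 63 with Npy at 10 CPM or more and the 41 without came from 15 and 14 labels and had similar medians of 2796 and 2850 genes and of 312994 and 319533 reads. All 12 members with Hpse, all 13 with Etv1, all 8 with Crhr2 and all 6 with Nos1 also had Npy. Cbln4 was found in 19 of 63 members with Npy and 1 of 41 without, Calb2 in 13 and 1, and Cort in 27 and 6. In the other direction, Crh was in 4 members with Npy and 13 without, Nr2f2 in 3 and 9, Myh8 in 1 and 5, Chrna2 in 1 and 5, and the transcription factor gene Npas1 in 11 and 22. Synpr (53 and 35), Cdh13 (50 and 30), Grin3a (37 and 26) and Reln (38 and 29) were spread over both. So were the subtype genes Tac1 (5 and 3) and Mme (4 and 2).

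**Figure D5:**
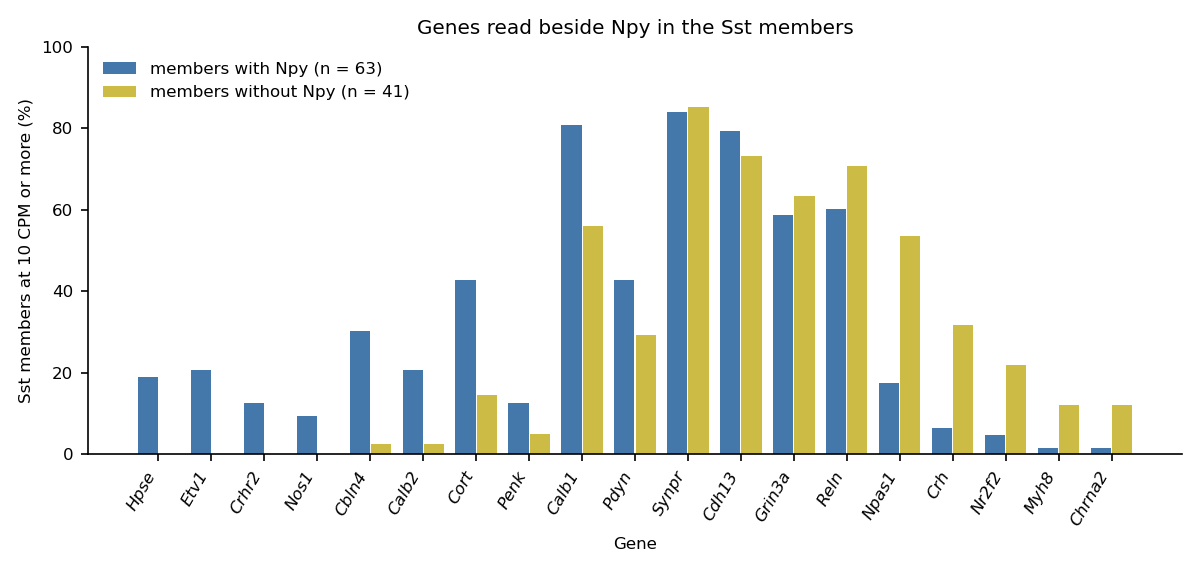
Share of Sst members with each gene at 10 CPM or more, in percent, among the 63 members with Npy and the 41 without. Hpse, Etv1, Crhr2 and Nos1 have no bar without Npy, whereas Npas1, Crh, Nr2f2, Myh8 and Chrna2 are taller there.

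In set A alone, where 38 members had Npy and 28 did not, Hpse was in 11 and 0, Cbln4 in 15 and 0, Calb2 in 5 and 0, Crhr2 in 4 and 0, Etv1 in 3 and 0, Nos1 in 3 and 0, and Crh in 2 and 9. The split of Hpse, Cbln4 and Crh was thus also seen in the largest set, where only 3 of the 13 members with Etv1 were found. That of Myh8 (1 and 0), Chrna2 (0 and 1) and Nr2f2 (2 and 1) came from sets B and C, and at most 3 members of set A had any 1 of these genes. These counts are a description: nuclei of 1 label share their source, and no test was run on them.

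Of the 17 members with Crh none had Calb2, Hpse, Nos1, Etv1, Crhr2, Myh8 or Chrna2, which were found in 14, 12, 6, 13, 8, 6 and 6 of the 87 without Crh. These genes were rare, at 6.90% of the 87 for Nos1, Myh8 and Chrna2 and at most 16.1%. A count of 0 among 17 members therefore does not show exclusion, and no test was run. In set A 11 members had Crh, and Nos1, Etv1, Myh8 and Chrna2 were in only 3, 3, 1 and 1 of the 55 without. Penk was in 2 of the 17 and 8 of the 87, Tac1 in 2 and 6, Pvalb in 4 and 16, Cort in 3 and 30, and Npas1 in 10 and 23. Calb1 was in 4 of the 17. Sst itself had a median of 3350 CPM against 5043 CPM without Crh. Pdyn was found on both sides of the Npy division, in 27 of 63 members with Npy and 12 of 41 without. Crh was in 3 of 39 members with Pdyn and 14 of 65 without, in set A in 1 of 25 and 10 of 41. Members with Pdyn had Cort in 5 of 39 against 28 of 65 without Pdyn, in set A 2 of 25 against 18 of 41, while Grin3a was in 29 of 39 and 34 of 65. The 6 members with Nos1 came from 5 labels, 3 in set A and 3 in set B. All 6 had Npy and Grin3a, and their median Sst of 24166 CPM was above the 4826 CPM of the other members. They also had more genes, with a median of 4902.5 against 2791.5, and the part of depth in this was not tested.

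Over the 104 members, Gda, a guanine deaminase gene, had the highest rank correlation with Sst (Spearman rho 0.54), ahead of Rab15, a small GTPase gene (0.52), Pgrmc2 (0.50), Socs5 (0.50) and Rtn1 (0.49), among 6459 genes read in at least 20% of members. Sptb, Terf2, Tomm7, Hcfc1r1 and Rims3 completed the 10 highest, each at 0.48. Within set A these values fell to 0.34 for Gda, 0.24 for Rab15 and 0.14 for Pgrmc2. Sst also correlated with reads per nucleus at 0.41, and at 0.23 in set A. All points share depth and library set, so the values describe these nuclei only.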

How the data were processed

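Read counts per gene and nucleus were deposited by the authors as raw counts. Per the labels' protocols, nuclei were sorted singly and libraries made with SMART-Seq v4 and Nextera XT, without molecular identifiers. Per the submitters' processing notes, reads were aligned with STAR 2.7.2a to mm10. For the counting tool, annotation, strand setting and use of introns, the record is: not given in the sources used here. Of 2501 columns, 1704 match no labelled sample and were not used. Rows without a gene symbol held 0.0931% of reads.

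Of 797 labelled nuclei, 16 were left out for under 50000 reads (9) or under 1000 genes (8). Each library is 1 sorted nucleus, and no doublet caller was run. CPM were computed here per 1000000 gene reads. The class rule used 10 CPM, and thinning used 100000 reads. Counts were summed per vector label and class (at least 3 nuclei of each) and tested with edgeR 4.0.16 (quasi-likelihood, TMM, label as block) on genes read in at least 5% of nuclei and passing its count filter, with Benjamini-Hochberg adjustment over all genes tested and a threshold of 0.05. The 6 rule genes were kept in library sizes and left out of tests. limma 3.58.1 and DESeq2 1.42.0 were alternatives (R 4.3.3, Python 3.11.15, scipy 1.17.1). The procedure was tested on simulated data.

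Genes were named per comparison as the 12 with the largest and the 12 with the smallest fitted fold change among those called, read in at least 20% of nuclei of the higher class and with the same sign over all nuclei and in set A, without predicted or mitochondrial genes, plus called genes of the lists. Results for some of these genes are not reported here, and counts over lists include them. The members and lists were chosen with earlier results of these data known. Shares have exact Clopper-Pearson 95% intervals, and the limit for a share of 0 is 3 counts of the total. Intervals and p-values measure counting error and the spread between labels only. Alternatives were other thresholds, filters, tools, library sets, equal nuclei per class and leaving out each label; equal nuclei and several analyses without set B were chosen after seeing the data.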

Additional observations from a re-analysis of the deposited data

Results flagged for a closer look

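In the comparison with Adarb2 nuclei, the only one with few enough labels for this check, 1 label lay far from the other 6 for 2 of the 21 named genes. For Vip, the AiE0450h label had a difference of -9.80 on the mean log2(CPM+1) scale against a median of -2.75 over the 7 labels, a gap of 0.715 of the whole range. For Ccn3, the CMV label had a difference of 0 against a median of -2.62, a gap of 0.671 of the range. Chance alone flags about 1 in 20 such groups.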

How the results depend on the processing

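Against other GABAergic nuclei, edgeR called 153 genes, 97 with at least 5 nuclei per label and class, 68 with equal numbers of nuclei, 305 with no filter on low counts, while DESeq2 called 1445 and limma 519. Against Pvalb nuclei the count of 163 became 92 in set A, 93 without set B, 89 with at least 5 nuclei and 327 with no filter, and 1179 in DESeq2 and 709 in limma. Against Adarb2 nuclei the count of 22 became 68 with at least 2 nuclei, 13 with at least 5, 38 after thinning and 62 with no filter, and 734 in DESeq2 and 180 in limma. The cause of these differences was not tested. Leaving out 1 label in turn gave 118 to 166, 136 to 168 and 15 to 29 genes. The deficit of detected genes went from -209 to -312 in set A and -307 without set B. The difference in reads per nucleus changed sign to 4812 in set A and 4100 without set B, and that in mitochondrial share to 0.00547 and 0.00636 percentage points. No named gene changed direction under any alternative run, although for set A this was part of the rule that named genes by size. Calls were kept in 997, 1023 and 311 recomputed values and lost in 184, 136 and 52, in the order of the comparisons above. This tally overstates stability. It includes an Sst threshold of 50 CPM, which left the members and calls as they were. At least 2 nuclei also changed no count against other GABAergic or Pvalb nuclei. Genes that could not be tested in a setting were left out of the tally rather than counted as lost. The shares of Sst nuclei moved by less than their intervals under each alternative. No paired analysis was possible because the replicate numbers in the titles only count nuclei within a label, so they pair no samples; the classes are paired by vector label instead, which is the block of the edgeR fits, and without that block 77, 102 and 33 genes were called. Calls rest on 1 sum of few nuclei per class in each of 13 or 7 labels, so genes in few nuclei could not be tested.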

Other observations

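Sst reads also occurred outside the class. Of 435 nuclei with Slc17a7 at 10 CPM or more, 47 had Sst at 10 CPM or more, with a median of 161 CPM among them, far under the 4982 CPM of the members, and 13 of the 47 also had Gad1 and Gad2 at 10 CPM or more. Of the 36 nuclei with neither Slc17a7 nor Gad1 and Gad2 at that level, 5 had Sst, with a median of 1250 CPM. In the members Meg3, a nuclear noncoding RNA, had the lowest rank correlation with Sst (Spearman rho -0.51, and -0.35 in set A).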
